A study of Mus musculus with 12 samples.

Results

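Nonsense-mediated decay (NMD) is a surveillance pathway that degrades messenger RNAs whose reading frame ends too early. GENCODE, a gene annotation, assigns the class nonsense_mediated_decay to spliced transcripts whose stop codon lies well upstream of the last exon junction. The set described here holds the transcripts of this class whose mean expected count over the 12 libraries was at least 10. It had 2435 members of 7183 NMD-class transcripts in the table, and of 142699 transcripts in all. The members were chosen by that mean count, which is a measured value, but not by any difference between groups. Just inside the threshold stood Pcbp4-218 at a mean of 10.0 counts and Hddc3-210 at 10.01, and just outside it Brd2-210 at 9.98 and Dpagt1-203 at 9.96.

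The study profiled poly(A) RNA of whole retina from WT mice of strain C57BL/6J and from 5xFAD mice of strain Tg6799, each at 1 month and at 6 months of age. 5xFAD mice model Alzheimer's disease by carrying mutant human transgenes under the neuronal Thy1 promoter. Each of the 4 groups had 3 libraries. The labels do not say whether libraries came from separate animals or from pooled retinas, so p-values measure only the spread between these samples. Library totals ranged from 10928031 to 19552537 expected counts. All 14 rod photoreceptor genes used as a check of the tissue had a mean of at least 1 CPM (a count scaled to library size) in every group. The table lists mouse genes only, so the human transgenes could not serve as a check of the genotype labels, and mouse App overlapped between genotypes at 1 month (230 to 330 CPM in WT, 313 to 358 CPM in 5xFAD). In many results below, WT at 1 month lay beside 5xFAD at 6 months, and 5xFAD at 1 month beside WT at 6 months. A genotype difference that turns with age and an exchange of genotype labels at 1 of the ages cannot be told apart from these values. Every genotype difference, age difference and interaction below is given by the labels as deposited.

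Libraries stood apart in ways that touch the results below. The count-weighted mean transcript length was 3709 nt (WT) and 4236 nt (5xFAD) at 1 month, and 3911 nt and 3658 nt at 6 months, where the libraries overlapped. Ribosomal RNA genes took 1.11% of counts in 5xFAD 6-month replicate 1, 0.446% in its replicate 2 and 0.325% in WT 1-month replicate 2. The summed level of 13 genes of retinal pigment epithelium and choroid ran from 77.9 to 163 CPM in WT and from 26.5 to 44.4 CPM in 5xFAD at 1 month, with 1 of the genes at 0 in 5xFAD. A sum of 8 endothelial genes ran from 187 to 226 CPM in WT and from 287 to 325 CPM in 5xFAD at that age, and at 6 months from 211 to 245 CPM (WT) and 160 to 173 CPM (5xFAD). The summed level of 6 horizontal cell genes was likewise higher in 5xFAD at 1 month (309 to 355 CPM against 217 to 250) and lower at 6 months (204 to 242 CPM against 257 to 306). Mitochondrial genes took 4.23% to 5.85% of counts in the WT libraries and 2.95% to 3.16% in the 5xFAD ones at 1 month. At 6 months they took 5.69% to 6.70% (WT) and 5.02% to 5.11% (5xFAD), so 5xFAD was lower at both ages. The summed level of the 14 rod genes was higher in 5xFAD at both ages. At 1 month it ran from 59910 to 64207 CPM (WT) and from 66437 to 71266 CPM (5xFAD). At 6 months it ran from 55110 to 59595 CPM (WT) and from 65229 to 70112 CPM (5xFAD). Lens genes summed to 108 CPM in 5xFAD 1-month replicate 2 and to at most 42.7 CPM in the other libraries. The part of length, ribosomal RNA, mitochondrial RNA and these cell types in the results below was not tested beyond the values given beside them.

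When a ribosome stops upstream of an exon junction, the exon junction complex left there can recruit UPF1 and its partners, and the SMG proteins, decapping enzymes and exonucleases then destroy the RNA. Many genes of splicing regulators carry conserved exons with such stops, so called poison exons, through which their products limit their own level. A transcript of this class therefore marks both a splicing choice and an RNA with a short expected life, and its count reflects how often it is made and how fast it is removed.

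The stop codons that define the class are shown for the members on which the results turn. Each line gives 12 bases of the spliced transcript before the stop, the stop in capitals, and 15 bases after it, read 5′ to 3′ from GRCm38.p6 with GENCODE M21 exons.
Ehmt1-206: cgctcgagggtaTGAgcgcattcccattcc
Smarca2-215: aggcgaaatctgTGAaggtgaaaatcaagc
Ppargc1a-201: aatttgtttttaTAAatgtgccatatcttc
Ppp1cb-203: ccgaagaaaaggTGAagacaggaattctag
Tbc1d30-202: aagctgggagaaTAGaatgttgcgagacag
Dnm1-206: gggggcttccccTGAcccctttggcccccc
Atp2c1-218: taccccaagattTAAtcatcttagctgtcc
Hnrnpu-206: ctgtgtgaagagTAAaaggggcccaactaa
Srsf1-204: aatgctttggatTAAggattgtggagcaca

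These stops arise in different ways. In Ehmt1-206 (stop at chr2:24804884-24804886, minus strand, in exon 3 of 9), 1 exon boundary is shifted by 8 nt against the coding transcript Ehmt1-204, and the stop lies 660 nt before the last junction. In Smarca2-215 (chr19:26776110-26776112, plus strand, exon 7 of 8), an exon of 106 nt is skipped. A boundary shift of 31 nt separates Ppargc1a-201 (chr5:51490109-51490111, minus strand, exon 7 of 13) from Ppargc1a-203, and its stop lies outside every annotated coding sequence of the gene. Ppp1cb-203 (chr5:32491056-32491058, plus strand, exon 8 of 9) ends at the normal stop and has an extra last exon of 1028 nt, which puts a junction 131 nt behind that stop. Tbc1d30-202 (chr10:121288978-121288980, minus strand, exon 2 of 6) has a shift of 4 nt, and Dnm1-206 (chr2:32312190-32312192, minus strand, exon 7 of 9) an extra intron and a shift of 26 nt. Ppargc1a-201 and Dnm1-206 share every base and junction with other annotated transcripts. The stop of Atp2c1-218 (chr9:105407186-105407188, minus strand, exon 23 of 24), that of Hnrnpu-206 (chr1:178325281-178325283, minus strand, exon 14 of 17) and that of Srsf1-204 (chr11:88050013-88050015, plus strand, exon 3 of 4) lie outside the coding sequence of every coding transcript of their gene.

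Over all members, 2426 (99.7%) had the stop at least 50 nt before the last junction, 7 had it closer and 2 had no annotated stop. The stop was TGA in 1378, TAA in 550 and TAG in 505. It lay inside the coding sequence of a coding transcript in 1451 members (59.6%), outside every coding sequence in 768 (31.5%) and at a normal stop, with an exon junction behind it, in 177 (7.27%). Against the main coding transcript of the gene, 1224 of 2398 members (51.0%) had a shifted splice site, 829 (34.6%) skipped an exon and 663 (27.6%) had an inserted exon. A retained intron was found in 184 (7.67%). In 394 members 1 skipped exon was the only event inside the span shared with the coding transcript. Differing first or last exons and exons beyond that transcript were not counted as events here. Of the 394, 380 (96.4%) skipped a length that is not a multiple of 3, which shifts the reading frame.

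Most members were minor products of their genes. The median member had a mean of 42 counts and 8.64% of its gene's counts, and 172 members had at least 50%. The 2435 members lay in 1923 genes, of which 387 held more than 1. Counts were split among overlapping transcripts by RSEM from unstranded reads, and 362 members had neither a base nor a junction of their own, so their values rest wholly on that split. In 465 members all 3 libraries of at least 1 group were listed at 0, and 89 members reached a mean of 10 counts in 1 group only. The level test covered 2375 members and left out 60 with low counts, and the test of the share of the gene's counts covered 2392 and left out 43.

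Summed over all members, the share of a library's counts was lower in 5xFAD than in WT at 1 month and higher at 6 months. The 3 WT libraries at 1 month gave 3.05%, 3.24% and 2.94%, and the 3 5xFAD libraries 2.62%, 2.59% and 2.68%. At 6 months the WT libraries gave 2.65%, 2.64% and 2.65%, and the 5xFAD libraries 3.12%, 3.12% and 2.95%. The genotypes did not overlap at either age, and WT at 1 month lay beside 5xFAD at 6 months. Group means were 3.08% ± 0.153 (SD, n = 3) for WT and 2.63% ± 0.0464 for 5xFAD at 1 month, and 2.65% ± 0.0056 and 3.06% ± 0.102 at 6 months. This is a change of -14.5% at 1 month and of 15.8% at 6 months. No p-value is given for this sum, because the members were chosen with earlier results of these data known.

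**Figure D1:**
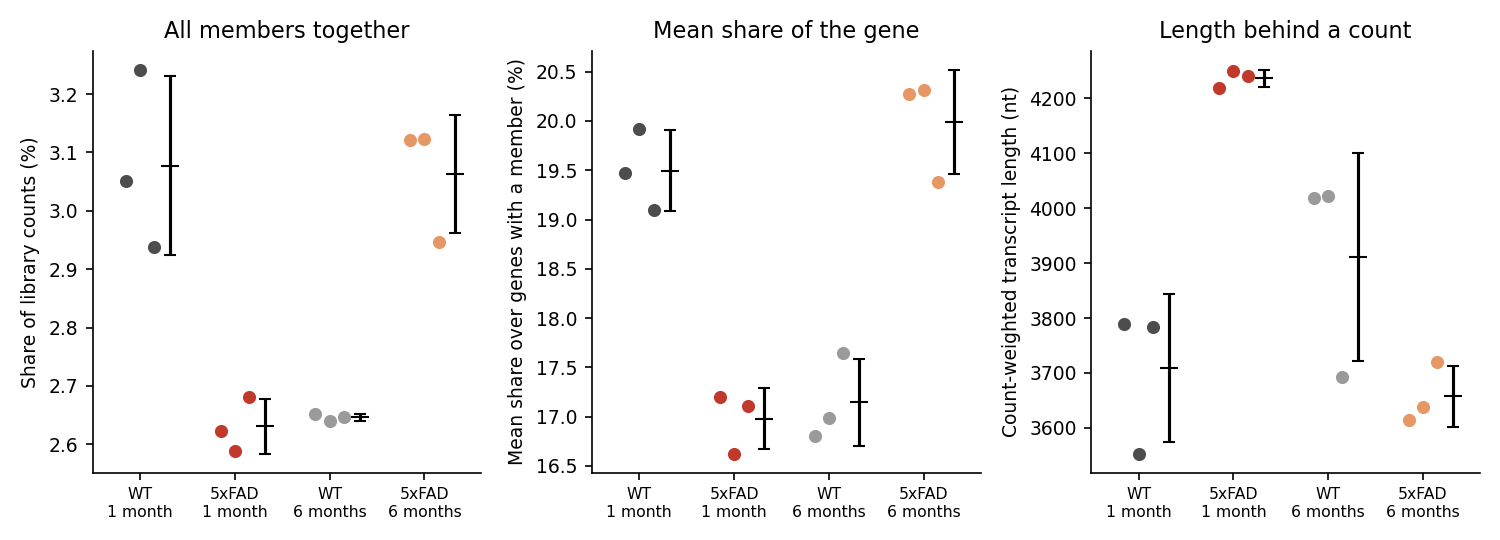
Left, the share of each library's counts that fell on the 2435 NMD-class transcripts (%). Middle, the mean share of the gene's counts over genes that hold a member (%). Right, the count-weighted mean transcript length (nt). Points are libraries, and bars give the mean and SD of 3 libraries. The axes do not start at 0. In the left and middle panels WT at 1 month and 5xFAD at 6 months are high, and the other groups are low.

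Within genes, the mean share followed that order and the median share did not. Averaged over 1785 genes with at least 50 counts in every library, members took 19.5% ± 0.41 (WT) and 17.0% ± 0.309 (5xFAD) of their gene's counts at 1 month (SD, n = 3), and 17.1% ± 0.445 and 20.0% ± 0.53 at 6 months. The median over the same genes overlapped between genotypes, at 8.65% to 9.67% (WT) and 7.996% to 9.11% (5xFAD) at 1 month, and 8.60% to 9.87% and 8.38% to 9.82% at 6 months. Member by member, the share was compared as the odds of the transcript against the rest of its gene. The median log2 odds ratio was -0.0014 at 1 month and -0.26 at 6 months, against 0.14 and -0.25 for all transcripts tested for their share. The members' median at 6 months thus had the opposite sign to the change of the sum and of the mean share. Transcript length moved with the sum. The 1220 shorter members changed by -24.2% at 1 month and 30.1% at 6 months, and the 1215 longer ones by -7.95% and 7.30%. The class of processed transcripts, which have no annotated reading frame, changed by -18.6% and 15.1%, while the retained-intron class overlapped between genotypes at both ages. In whole retina, fewer cells of a type and less RNA per cell cannot be told apart.

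At 1 month, 37 members differed in level between 5xFAD and WT (edgeR quasi-likelihood test, Benjamini-Hochberg adjusted p under 0.05 over all transcripts). Of these, 15 were higher and 22 lower in 5xFAD. The 37 are 1.56% of the 2375 members tested, against 2.52% of all 45326 transcripts tested. Higher calls made up 1.6% and lower calls 0.922% of all transcripts. The median log2 difference was -0.10 for members and 0.05 for all transcripts, or -0.11 and 0.06 with transcripts at 0 in a whole group set at their bound of 3 counts a library. DESeq2's Wald test called 296 members in the same comparison, and the 37 were among them. Its calls over all transcripts were not counted, so the 296 cannot be set against such a share. Without 5xFAD 1-month replicate 2, 14 members were called, without its replicate 1, 17, and without WT 1-month replicate 2, 15.

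Ehmt1-206, from the gene of a histone lysine methyltransferase, had 255, 316 and 259 counts in WT at 1 month and 0 in all 3 5xFAD libraries. The level of Ehmt1-206 was at least 88.5-fold lower in 5xFAD (edgeR adjusted p = 0.000489). The whole Ehmt1 gene stood at 73.7 and 67.8 CPM (adjusted p = 0.472). Smarca2-215, from the gene of an ATPase of the SWI/SNF chromatin remodelling complex, had 712, 456 and 427 counts in WT and 109, 81.0 and 127 in 5xFAD. It fell by 2.26 ± 0.23 (SE) on the log2 scale (edgeR adjusted p = 0.00312), while the Smarca2 gene rose by 0.28 (adjusted p = 0.0201). Ppargc1a-201, from the gene of a coactivator that drives mitochondrial biogenesis, went the other way. It was at 0 in WT and at 104, 160 and 153 counts in 5xFAD, at least 48.6-fold higher (edgeR adjusted p = 0.00932). Ppargc1a-201 has neither a base nor a junction of its own, so these counts rest wholly on RSEM's split. Heatr1-206, from a gene needed for ribosomal RNA synthesis, had 147, 149 and 86.4 counts in WT and 13.6, 5.55 and 15.9 in 5xFAD, and fell by 3.34 ± 0.50 (edgeR adjusted p = 0.0106). None of these 4 members overlapped between genotypes. That was a condition of naming them, so it adds nothing to the calls. The calls of Ehmt1-206, Smarca2-215 and Ppargc1a-201 held when any 1 library was left out. That of Heatr1-206 did not pass without the 3 libraries richest in ribosomal RNA (edgeR adjusted p = 0.0576).

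Ppp1cb-203, from the gene of a catalytic subunit of protein phosphatase 1, was at 0 in WT at 1 month. It had 107, 201 and 66.9 counts in 5xFAD, at least 43.6-fold higher (edgeR adjusted p = 0.00751). Tbc1d30-202, from the gene of a Rab GTPase-activating protein, was at 0 in WT and had 43.8, 63.2 and 121 counts in 5xFAD, at least 26.6-fold higher (edgeR adjusted p = 0.0167). Both were listed at 0 in every WT library at this age, while the genes stood at 227 CPM (Ppp1cb) and 66.4 CPM (Tbc1d30) in WT. Dnm1-206, from the gene of dynamin 1, the GTPase that cuts synaptic vesicles free, had 407, 1522 and 538 counts in WT and 20.3, 18.5 and 44.0 in 5xFAD. It fell by 4.86 ± 0.73 (edgeR adjusted p = 0.0108). Like Ppargc1a-201, it has neither a base nor a junction of its own. Atp2c1-218, from the gene of a Golgi calcium and manganese pump, had 0 in WT and 323, 257 and 488 counts in 5xFAD, at least 124-fold higher (edgeR adjusted p = 0.0113). Syt6-206, from a synaptotagmin gene, had 0 in WT and 120, 154 and 129 counts in 5xFAD, at least 46.8-fold higher (edgeR adjusted p = 0.00631). Ndst3-205, from the gene of a heparan sulfate-modifying enzyme, had 0 in WT and 77.8, 354 and 115 counts in 5xFAD, at least 64.1-fold higher (edgeR adjusted p = 0.0155). Iqsec3-202 (1.53 ± 0.28), Adgrb1-206 (1.26 ± 0.27) and Atp2a2-203 (0.61 ± 0.09) also rose on the log2 scale, and Mdh2-203 (-2.26 ± 0.45) fell, with edgeR adjusted p from 0.0103 to 0.041. Leaving out 1 library ended the calls of Tbc1d30-202 (WT replicate 2, edgeR adjusted p = 0.0555, and 5xFAD replicates 2 and 3, 0.0619 and 0.0581) and Dnm1-206 (5xFAD replicates 1 and 2, 0.0535 and 0.0547). Adgrb1-206 lost its call without any 1 of the 6 libraries (up to 0.154), and Mdh2-203 and Iqsec3-202 without any of 5 (up to 0.117 and 0.112), the exception being WT replicate 3. Once the trend on length and GC was taken out, Atp2a2-203 (0.801), Adgrb1-206 (0.233) and Iqsec3-202 (0.0877) did not pass, and Atp2a2-203 did not pass without replicate 2 of either genotype (0.0741 and 0.0714).

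A member of a photoreceptor gene was also called. Rpgrip1-217 comes from the gene of a connecting-cilium protein whose loss causes retinal dystrophy. At 1 month it had 5089, 5271 and 3300 counts (WT) and 2245, 2167 and 2353 counts (5xFAD). The groups did not overlap, and it fell by 0.95 ± 0.19 on the log2 scale (edgeR adjusted p = 0.0312), while the gene did not pass the test (0.10, adjusted p = 0.509). For the 37 members called at 1 month, the gene was called in the same direction for 11, in the opposite direction for 1 and was not called for 25. Of all 16233 genes tested, 19.6% were called. The call of Rpgrip1-217 was lost without any 1 library other than WT replicate 3 (edgeR adjusted p up to 0.114).

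Member length moved with these calls. Among the 812 shortest members (343 to 1561 nt), of which 804 were tested, 1 was higher and 7 were lower in 5xFAD at 1 month (0.995% called). Among the 812 longest (2934 to 15612 nt), of which 787 were tested, 9 were higher and 6 lower (1.91% called). Over all transcripts in the same length ranges the counts were 53 higher and 164 lower of 16881 tested, and 584 higher and 129 lower of 15852 tested. The median log2 difference was -0.31 for the shortest members and 0.17 for the longest, or -0.32 and 0.17 with bounds. With a smooth trend on length and GC content removed, 40 members were called, 10 higher and 30 lower, in place of 15 and 22, and 28 were shared.

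At 6 months 9 members differed between genotypes, 1 higher and 8 lower in 5xFAD. The 9 are 0.379% of members, against 0.488% of all transcripts, of which 0.165% were higher and 0.322% lower. Members had a median log2 difference of 0 and all transcripts one of -0.13. Ppp1cb-203 had 509, 685 and 364 counts in WT and 0 in all 5xFAD libraries, at least 133-fold lower (edgeR adjusted p = 0.0112). Ppargc1a-201 had 186, 405 and 102 counts in WT and 0 in 5xFAD, at least 57.4-fold lower (edgeR adjusted p = 0.0201). Both had stood at 0 in WT and above 0 in 5xFAD at 1 month. Tbc1d30-202 (63.3, 118 and 88.4 counts against 0) was at least 22.7-fold lower, with an edgeR adjusted p of 0.0374. Atp2c1-218 (428, 658 and 94.6 counts against 0) was at least 99.3-fold lower, with an edgeR adjusted p of 0.027. Ndst3-205 (562, 488 and 221 counts against 0) was at least 111-fold lower, with an edgeR adjusted p of 0.0286. These 3 too were the reverse of 1 month, when the WT libraries were at 0.

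Hnrnpu-206, Iqsec3-202 and Adgrb1-206 were above 0 in every library at both ages. Hnrnpu encodes an abundant nuclear RNA-binding protein, Iqsec3 an exchange factor of inhibitory synapses and Adgrb1 an adhesion receptor. At 6 months Hnrnpu-206 fell by 0.86 ± 0.11 on the log2 scale in 5xFAD (edgeR adjusted p = 0.0114), Iqsec3-202 by 1.67 ± 0.28 (0.0361) and Adgrb1-206 by 1.92 ± 0.28 (0.0214). All 3 had risen at 1 month. The member higher in 5xFAD at 6 months was Gm48551-202, of a predicted gene (0.97 ± 0.18, edgeR adjusted p = 0.0488). DESeq2's Wald test called 194 members at this age, and all 9 were among them. Its calls over all transcripts were not counted here either. Without WT 6-month replicate 1 or 2, 1 member was called, and with the third replicate of one genotype left out, 16 (WT) or 22 (5xFAD). Each of the 9 calls depended on WT 6-month replicate 2, without which the edgeR adjusted p ran from 0.0531 for Hnrnpu-206 and 0.0578 for Ppp1cb-203 to 0.231 for Gm48551-202. All but Ppp1cb-203 were also lost without WT 6-month replicate 1 (0.0554 to 0.221). Those of Gm48551-202, Ndst3-205, Atp2c1-218, Tbc1d30-202 and Iqsec3-202 were lost without 5xFAD 6-month replicate 1 or 2 (0.0532 to 0.11), and that of Tbc1d30-202 without WT 6-month replicate 3 (0.0642). Once that trend was taken out, Adgrb1-206 (0.0887) and Iqsec3-202 (0.0856) did not pass at 6 months, nor did Hnrnpu-206 at 1 month (0.0859). At 1 month Hnrnpu-206 was lost without any 1 library (up to 0.195).

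With age in WT, 14 members differed (8 higher, 6 lower at 6 months), 0.589% against 0.916% of all transcripts, of which 0.552% were higher and 0.364% lower. Members had a median log2 difference of -0.02 and all transcripts one of 0.10. These comparisons share their libraries with those above, so the values are given side by side. Ppp1cb-203 was at least 120-fold higher at 6 months (edgeR adjusted p = 0.00862), Ppargc1a-201 at least 51.7-fold (0.0146) and Syt6-206 at least 17.1-fold (0.014). Ehmt1-206 fell by 2.32 ± 0.37 on the log2 scale (edgeR adjusted p = 0.0345), to 55.6, 85.7 and 97.9 counts. Rpgrip1-217 fell by 1.13 ± 0.19 (0.0288) to 2421, 2970 and 3547 counts, and Rpgrip1-214, another member of that gene, fell by 2.695 ± 0.49 (0.0374). The calls of Ppp1cb-203 and Syt6-206 held without any 1 library. The other 4 named here were lost without WT 6-month replicate 1 or 2, with an edgeR adjusted p of 0.0656 to 0.206, and Ehmt1-206, Rpgrip1-217 and Rpgrip1-214 also without WT 1-month replicate 2 (0.115 to 0.134). Further losses came without WT 1-month replicate 1 (Ehmt1-206, Rpgrip1-217 and Rpgrip1-214, 0.0739 to 0.0903), its replicate 3 (Ehmt1-206, 0.0684) or WT 6-month replicate 3 (Rpgrip1-214, 0.0728). Without WT 6-month replicate 1 or 2, 3 members were called in place of 14, and without WT 1-month replicate 2, 4.

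With age in 5xFAD, 52 members differed, 29 higher and 23 lower at 6 months. They are 2.19% of members, against 3.12% of all transcripts, of which 1.16% were higher and 1.96% lower. The median log2 difference was 0.08 for members and -0.09 for all transcripts. Ehmt1-206, at 0 in 1-month 5xFAD, had 317, 249 and 173 counts at 6 months, at least 71.5-fold higher (edgeR adjusted p = 0.00137). Smarca2-215 rose by 2.37 ± 0.23 on the log2 scale (edgeR adjusted p = 0.00316) to 580, 573 and 760 counts. Dnm1-206 rose by 4.78 ± 0.72 (0.00946), Heatr1-206 by 3.82 ± 0.51 (0.00616) and Mdh2-203, of the mitochondrial malate dehydrogenase gene, by 2.61 ± 0.45 (0.0166). Lower at 6 months were Ppp1cb-203, at least 48.4-fold (edgeR adjusted p = 0.00616), Ppargc1a-201, at least 54.0-fold (0.00776), Atp2c1-218, at least 138-fold (0.00923) and Adgrb1-206, by 2.35 ± 0.28 on the log2 scale (0.00502). Without the 3 libraries richest in ribosomal RNA, 2 of which are 5xFAD at 6 months, 7 members were called in place of 52. Leaving out any 1 5xFAD library other than 6-month replicate 3 left 17 (1-month replicate 2) to 33 (6-month replicate 1). Without those 3, Ehmt1-206 and Smarca2-215 still passed (edgeR adjusted p up to 0.0139 and 0.03 over all alternatives). Ppp1cb-203 (0.0507), Ppargc1a-201 (0.0594), Dnm1-206 (0.0668), Adgrb1-206 (0.0711), Atp2c1-218 (0.0875), Heatr1-206 (0.094) and Mdh2-203 (0.147) did not. Dnm1-206 was also lost without 5xFAD 1-month replicate 2 (0.0521), and Mdh2-203 without its replicate 1 or 2 (0.0708 and 0.0754).

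In the test of any difference among the 4 groups, 39 members differed (1.64%), against 2.55% of all transcripts and 25.5% of all genes. The count was 20, 14 and 22 without 5xFAD 1-month replicates 1, 2 and 3, and 21 and 20 without WT 6-month replicates 1 and 2. With the 3 ribosomal RNA-rich libraries left out, 15 members differed.

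**Figure D2:**
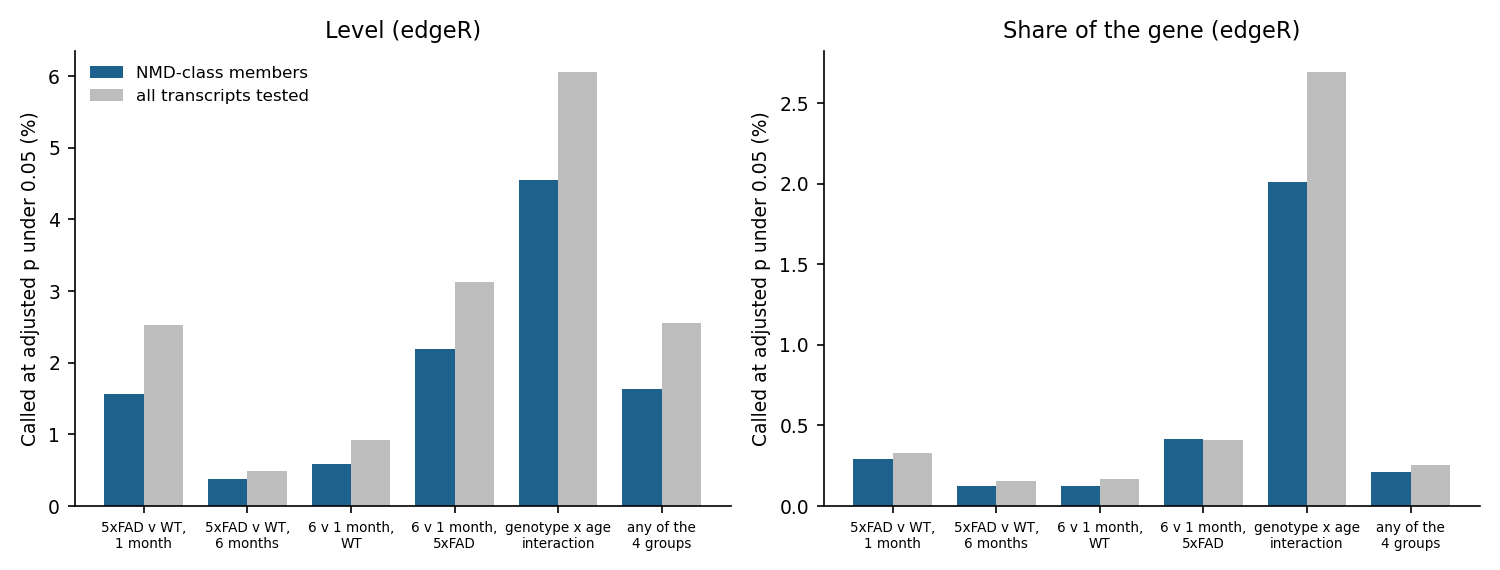
Bars give the percentage of transcripts called at an adjusted p under 0.05, for NMD-class members (blue) and for all transcripts tested (grey), in each comparison. The left panel is the level and the right panel the share of the gene's counts. For the level the members lie below all transcripts in every comparison (1.56% against 2.52% at 1 month).

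The interaction of genotype and age, that is, whether the genotype difference itself changed between 1 and 6 months, was called for more members than any single comparison. It was called for 108 members, 55 with a positive and 53 with a negative interaction, which is 4.55% of members against 6.05% of all transcripts (2.08% positive and 3.97% negative). Of the 108, 54 were higher in both WT at 1 month and 5xFAD at 6 months, 49 were higher in both 5xFAD at 1 month and WT at 6 months, and 5 had another order. At gene level the interaction was called for 25% of genes, 11.7% positive and 13.3% negative. Without WT 6-month replicate 1 or 2, 48 and 47 members were called for the interaction, without WT 1-month replicate 2, 60, and without 5xFAD 1-month replicate 1, 66. With the 3 ribosomal RNA-rich libraries left out, 49 were called. The same 2 orders held for 96.2% of the 2743 transcripts of all classes called for the interaction. The limit set by the genotype labels, given above, applies to all of them. The listing at 0 crossed in the same way. Of members at 0 in all libraries of exactly 2 groups, 52 were at 0 in WT at 1 month and 5xFAD at 6 months and 33 in the opposite pair, against 7 to 13 for each of the other 4 pairs. The same count was not made over all transcripts, so it is not a result about this class. With DESeq2's size factors the interaction was positive for 71 and negative for 51 members, and after removal of the trend on length and GC for 73 and 47.

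**Figure D3:**
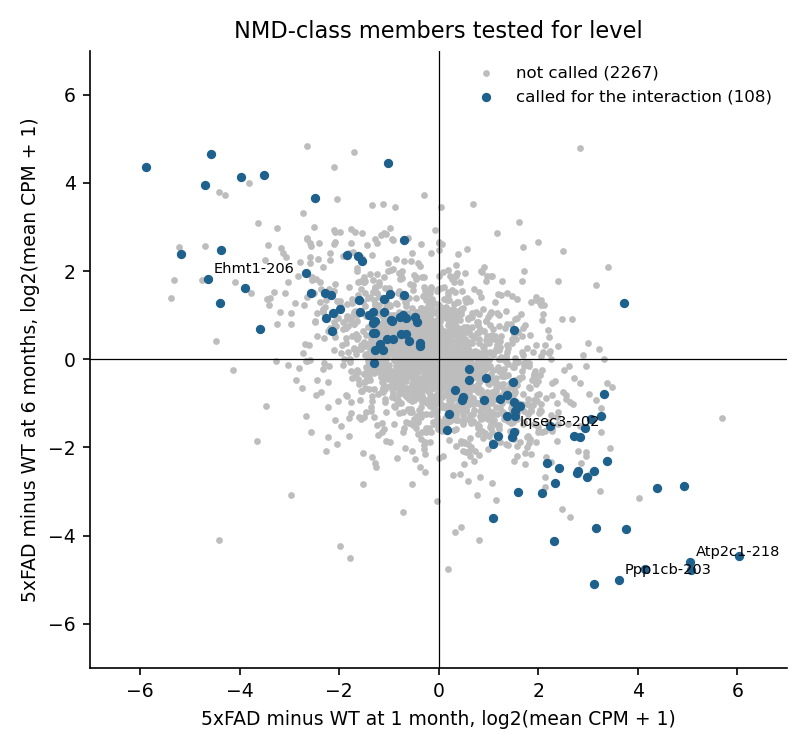
Each point is 1 of 2375 members tested for level. The horizontal axis is the difference between 5xFAD and WT at 1 month and the vertical axis the difference at 6 months, both on the scale of log2(mean CPM + 1). Blue points are the 108 called for the interaction. Of these, 54 lie in the upper left quadrant and 51 in the lower right.

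Members of different kinds shared the crossed order. In the first, the transcript was listed at 0 in a pair of groups, as Ppp1cb-203 (adjusted p of the interaction 0.00122, edgeR), Ppargc1a-201 (0.00172), Atp2c1-218 (0.00221), Ndst3-205 (0.00256) and Tbc1d30-202 (0.003). In another, it was near 0 in 1 group and low in a second, as Ehmt1-206 (0.000292) and Ano2-202, of a calcium-activated chloride channel gene (0.0261). At 1 month Ano2-202 had 374, 363 and 260 counts (WT) and 0, 0 and 53.5 (5xFAD), and at 6 months 0 (WT) and 189, 226 and 246 (5xFAD). Ppargc1a-201 and Ano2-202 have neither a base nor a junction of their own. In the last kind, all 12 libraries held counts, as Hnrnpu-206, with an interaction of -1.35 ± 0.15 on the log2 scale (0.00169). Its group means at 1 month were 141 ± 9.28 CPM (WT) and 197 ± 2.04 CPM (5xFAD), and at 6 months 236 ± 37.7 CPM and 129 ± 1.91 CPM (SD, n = 3). Smarca2-215 (2.91 ± 0.31, 0.00146) and Rpgrip1-217 (1.86 ± 0.27, 0.00444) had the opposite sign. Of those named in this paragraph, Ano2-202 (edgeR adjusted p = 0.172) did not pass without the 3 libraries richest in ribosomal RNA. It was also lost without WT 1-month replicate 1 or 2, WT 6-month replicate 1 or 2 or 5xFAD 6-month replicate 2 (0.0508 to 0.0743). The other members named in this paragraph kept their calls when any 1 library was left out.

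**Figure D4:**
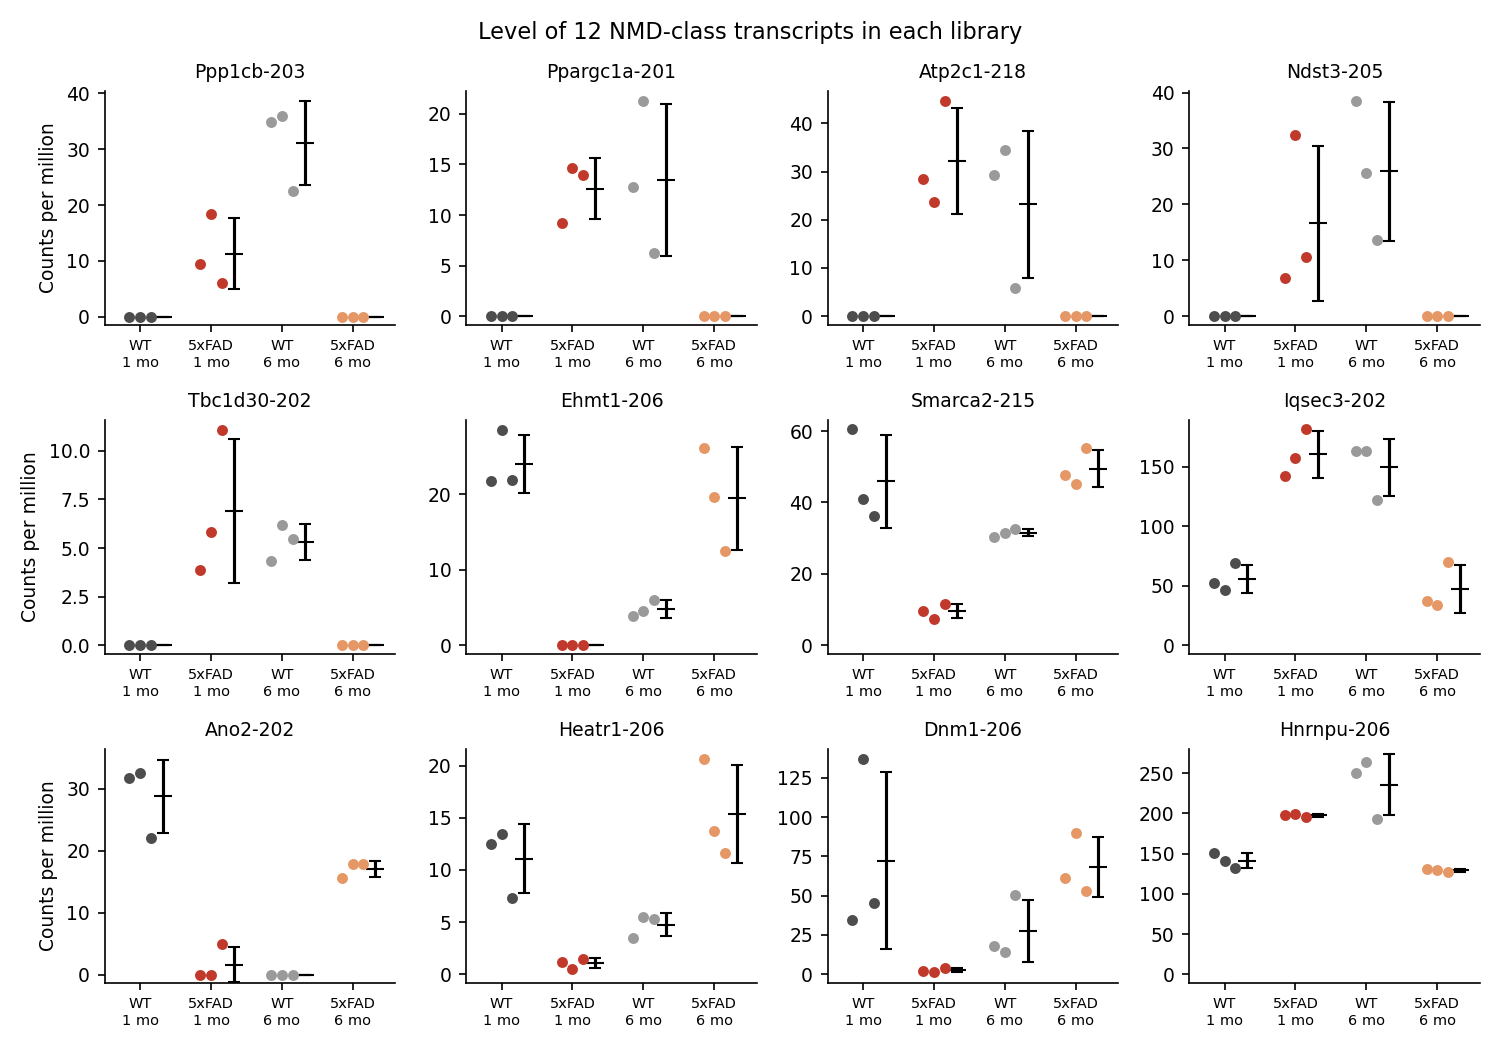
Level of 12 members in CPM, with 1 point per library and bars for the mean and SD of 3 libraries. Each panel has its own vertical axis. The top row and Tbc1d30-202 are at 0 in WT at 1 month and 5xFAD at 6 months, and Ehmt1-206 is at 0 in 5xFAD at 1 month. Hnrnpu-206 lies above 100 CPM in all 12 libraries. Ppargc1a-201, Ano2-202 and Dnm1-206 have neither a base nor a junction of their own.

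A member's level can change because its gene changes or because its share of the gene changes, so the share was tested by itself. At 1 month 7 members changed their share, 4 higher and 3 lower in 5xFAD (0.293% of 2392 members, against 0.332% of 34681 transcripts, 0.199% higher and 0.133% lower). At 6 months 3 changed, all lower (0.125% against 0.156%, of which 0.0433% higher and 0.112% lower). With age in WT 3 changed, all higher (0.125% against 0.17%, of which 0.11% higher and 0.0606% lower). With age in 5xFAD 10 changed, 5 in each direction (0.418% against 0.407%, of which 0.159% higher and 0.248% lower). The interaction was called for 48, 24 in each direction (2.01% against 2.69%, of which 1.16% positive and 1.53% negative), and 5 members differed among the 4 groups (0.209% against 0.257%). These counts rest on single libraries. At 1 month 1 member was called without WT replicate 2, and 3 and 2 without 5xFAD replicates 1 and 2. At 6 months the count fell to 0 if WT replicate 1 or 2 was left out and to 1 if the third was, and it was 5 when 5xFAD replicate 1 was dropped and 16 when its replicate 3 was. With age in WT it was 0 without 1-month replicate 2 or 6-month replicate 1, and 1 without 6-month replicate 2. With age in 5xFAD it was 3 and 2 without 1-month replicates 1 and 2, and 26 without 6-month replicate 3. For the interaction, 9 and 10 were called without WT 6-month replicates 1 and 2, 18, 19 and 22 without 5xFAD 1-month replicates 1, 2 and 3, 30 and 24 without WT 1-month replicates 1 and 2, and 28 without 5xFAD 6-month replicate 2. Among the 4 groups, the count was 0 without any 1 of the 5xFAD 1-month libraries or WT 6-month replicate 1 or 2, and 2 without WT 1-month replicate 2. It was 8 without WT 1-month replicate 1, 9 without WT 6-month replicate 3 and 15 without 5xFAD 6-month replicate 3.

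The 6 members with the smallest p-values for the share are given by library or by group. Ehmt1-206 held 30.0%, 34.6% and 32.9% of Ehmt1 counts in the WT libraries and 0% in the 5xFAD ones at 1 month. At 6 months it held 6.31%, 7.25% and 9.64% in the WT libraries and 44.5%, 30.2% and 19.4% in the 5xFAD ones. The share fell at 1 month (edgeR adjusted p = 0.0101) and rose with age in 5xFAD (0.0157). Smarca2-215 held a mean of 23.04% ± 6.06 of its gene in WT and 3.92% ± 0.881 in 5xFAD at 1 month (edgeR adjusted p = 0.0277), and 13.0% ± 0.973 and 24.0% ± 2.47 at 6 months (SD, n = 3). The frame-keeping transcript Smarca2-201 stood at 37.4 and 120 CPM at 1 month, a difference that did not pass the test (1.68 ± 0.65 on the log2 scale, adjusted p = 0.228).

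Ppp1cb-203 held 0% of Ppp1cb in WT and 4.95% ± 2.79 in 5xFAD at 1 month (edgeR adjusted p = 0.0303), and 14.4% ± 3.75 and 0% at 6 months (0.0315), while the gene stayed between 211 and 243 CPM in the 4 groups. Ppargc1a-201 held 0% and 18.4% ± 5.08 at 1 month (0.0341), and 16.7% ± 7.23 and 0% at 6 months (0.0423). Tbc1d30-202 held 0% and 8.74% ± 4.03 at 1 month (0.0338), and 6.96% ± 0.974 and 0% at 6 months (0.0454). Dnm1-206 held 12.6% ± 9.44 and 0.391% ± 0.185 at 1 month (0.0338), and 4.49% ± 3.29 and 12.8% ± 3.83 at 6 months, a difference that did not pass (0.394). In each of the 6 the libraries of the genotypes did not overlap at 1 month, but these members were picked for small p-values. The shares of Ppargc1a-201 and Dnm1-206 rest wholly on RSEM's split, as given above. Leaving out 1 library left the 1-month share call of Ehmt1-206 in place. Those of the other 5 were lost without WT 1-month replicate 2 (edgeR adjusted p = 0.0639 to 0.0697) or any 1 of the 5xFAD libraries (0.0577 to 0.122), and that of Dnm1-206 also without WT replicate 3 (0.0546). The 6-month share calls of Ppp1cb-203, Ppargc1a-201 and Tbc1d30-202 were lost without any 1 WT library (0.0615 to 0.245), and the latter pair's also without 5xFAD 6-month replicate 1 or 2 (0.0559 to 0.0613). The rise with age of Ehmt1-206's share in 5xFAD did not pass without the 3 libraries richest in ribosomal RNA (0.0651).

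**Figure D5:**
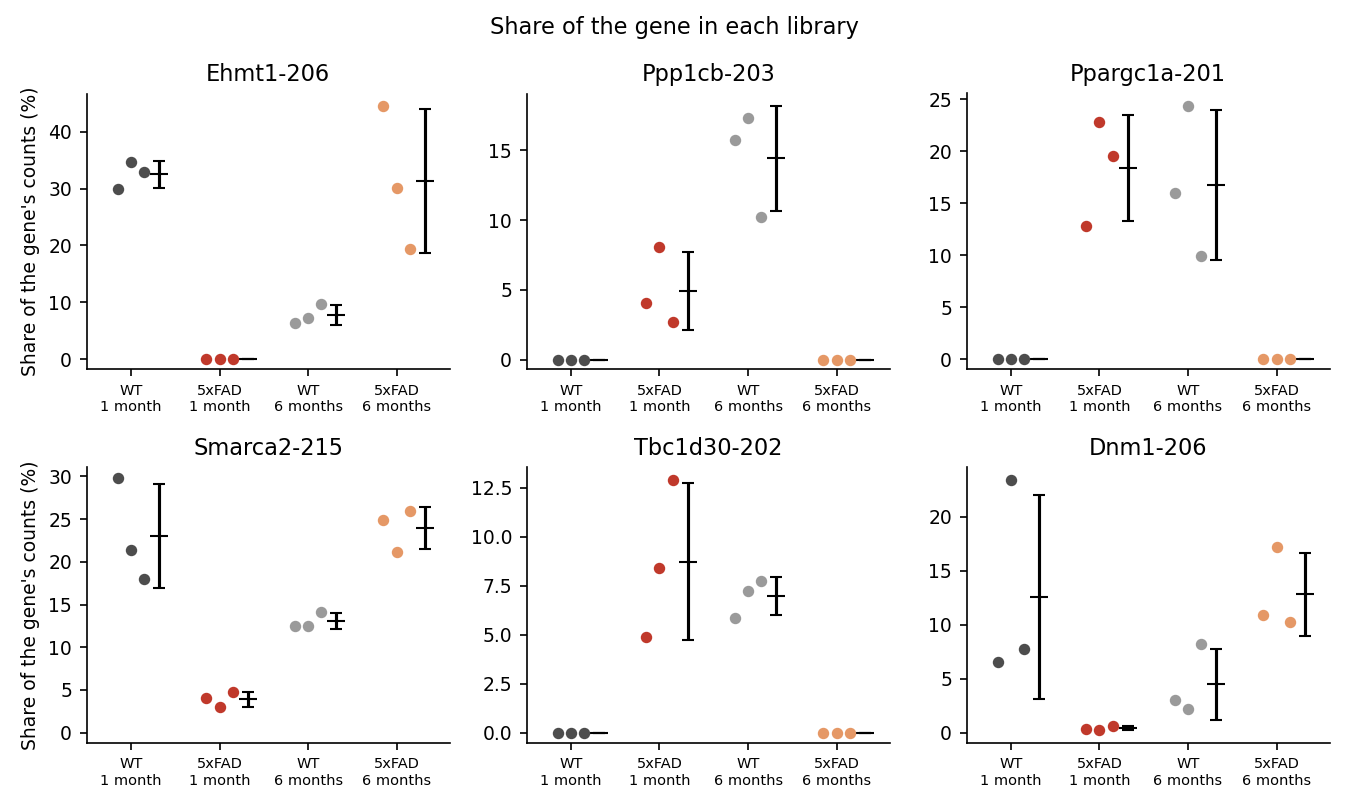
Share of the gene's counts (%) taken by 6 members, with 1 point per library and bars for the mean and SD of 3 libraries. Each panel has its own vertical axis. Ppp1cb-203, Ppargc1a-201 and Tbc1d30-202 are at 0% in WT at 1 month and 5xFAD at 6 months. Ehmt1-206, Smarca2-215 and Dnm1-206 are lowest in 5xFAD at 1 month. Ppargc1a-201 and Dnm1-206 have neither a base nor a junction of their own.

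Poison exons of splicing regulators are a textbook case of this class. None of the called members named in this paragraph, however, has its stop in an inserted exon. Against the coding transcript, Srsf1-204 and Hnrnpdl-205 have an extra intron, and Hnrnpu-206 a shifted exon end and exons beyond it. Hnrnpk-203 and Clk1-210 skip an exon. The stops of Srsf3-201, Srsf6-201 and Tra2a-202 do lie in an inserted exon, and these were not called in any comparison. Of 13 members of 11 SR protein genes, 1 was called at 1 month, where 2.52% of all transcripts were. None was called in any other comparison, where 0.488% to 6.05% of all transcripts were. Srsf1-204, from the gene of a founding SR protein, had 673, 627 and 627 counts (WT) and 382, 290 and 375 counts (5xFAD) at 1 month, and fell by 0.82 ± 0.17 on the log2 scale (edgeR adjusted p = 0.036). The median log2 difference of the 13 at 1 month was -0.37, against -0.10 for all members and 0.05 for all transcripts. The genes moved too, with 6 of 15 SR protein genes lower and none higher at 1 month (8.91% and 10.7% of all genes), a median of -0.22 against -0.04 for all genes, and no SR member was called for its share. Of 50 members of 28 genes for hnRNPs and other regulators with poison exons, 49 were tested. Hnrnpu-206 was the only 1 of the 49 called in each of the 4 comparisons between groups, where 0.488% to 3.12% of all transcripts were called. For the interaction 4 of the 49 were called (6.05% of all transcripts and 4.55% of members), among them Hnrnpdl-205 (-1.93 ± 0.48 on the log2 scale, edgeR adjusted p = 0.0439) and Hnrnpk-203 (0.0279). Clk1-210, of a kinase that phosphorylates SR proteins, averaged 171 CPM (WT) and 35.9 CPM (5xFAD) at 1 month, and 68.7 CPM (WT) and 107 CPM (5xFAD) at 6 months. Its difference at 1 month did not pass (-2.25 ± 0.55, edgeR adjusted p = 0.0645). None of 6 members of neuronal splicing regulator genes was called in any comparison, where 0.488% to 6.05% of all transcripts were called for their level. The call of Srsf1-204 was lost without any 1 of the 6 libraries (edgeR adjusted p = 0.0593 to 0.121) and after removal of the trend on length and GC (0.0815). That of Hnrnpk-203 was lost without WT 1-month replicate 2, 5xFAD 1-month replicate 2 or 3 or WT 6-month replicate 1 or 2 (0.0554 to 0.0837), and that of Hnrnpdl-205 without any 1 of the 12 libraries (up to 0.133). Hnrnpk-203 has neither a base nor a junction of its own.

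The genes of the decay pathway itself were read at gene level. Of 15 genes of NMD factors, 2 were higher and 1 lower in 5xFAD at 1 month (10.7% and 8.91% of all genes tested were higher and lower), with a median log2 difference of 0.21 against -0.04 for all genes. Upf2, which bridges UPF1 to the exon junction complex, rose by 0.37 ± 0.10 (edgeR adjusted p = 0.0145), and Smg1, the kinase that phosphorylates UPF1, by 0.39 ± 0.12 (0.021). Upf3a fell by 0.39 ± 0.13 (0.0355), and Upf1 did not pass (0.30 ± 0.11, adjusted p = 0.0516). Of 13 exon junction complex genes, 3 were lower and none higher, Magohb by 1.19 ± 0.38 (0.0286), Pnn by 0.34 ± 0.09 (0.00983) and Rnps1 by 0.27 ± 0.09 (0.0464). At 6 months no gene of either list passed, while 6.38% of all genes did (2.48% higher, 3.89% lower).

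Of 21 genes for general mRNA decay enzymes, 6 were higher and 2 lower at 1 month, beside 10.7% and 8.91% of all genes. Dcp2, the decapping enzyme, went from 43.3 ± 4.23 to 84.8 ± 3.91 CPM (SD, n = 3), a rise of 0.97 ± 0.13 on the log2 scale (edgeR adjusted p = 1.78e-05). Xrn1, the exonuclease that degrades decapped RNA, rose by 0.56 ± 0.11 (0.0013) and Cnot1, the scaffold of the deadenylase complex, by 0.46 ± 0.10 (0.0031). Pan3, of another deadenylase, fell by 0.75 ± 0.10 (2.92e-05) and was higher at 6 months by 0.48 ± 0.10 (0.00643). These enzymes act on most mRNAs, not on NMD targets alone. The genes held 8 members. Of these, Cnot1-216 was called, lower with age in 5xFAD (-5.94 ± 1.22, edgeR adjusted p = 0.0313), where 3.12% of all transcripts were called. It was also the 1 called for the interaction (0.0204), as were 6.05% of all transcripts. Its call with age was lost without any 1 of the 5xFAD 1-month libraries or 5xFAD 6-month replicate 1 (0.0758 to 0.105).

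Some RNAs are known to be degraded by this pathway without holding the class label. Genes listed for such RNAs were read at gene level, and 2 of them, Ifrd1 and Tbl2, also hold a member of the class. Of 22 listed genes tested, 3 were lower and none higher in 5xFAD at 1 month (8.91% and 10.7% of all genes), and none passed at 6 months (6.38% of all genes). Gas5 and Snhg12 are snoRNA host genes whose spliced RNAs are NMD substrates. Gas5 went from 108 ± 9.2 to 66.9 ± 5.36 CPM (-0.70 ± 0.11, edgeR adjusted p = 0.000115), and Snhg12 from 28.3 ± 1.59 to 17.1 ± 1.43 CPM (-0.72 ± 0.16, 0.0027). At 6 months Gas5 stood at 102 and 106 CPM. With age, 3 of the 22 were higher in WT and 6 in 5xFAD, and none lower, against 6.01% higher and 4.49% lower of all genes in WT (10.5% in all) and 10.8% and 12.4% in 5xFAD (23.2%). Atf4, Atf3 and Ifrd1, stress genes that are also substrates, rose in both genotypes. Atf4 rose by 0.48 ± 0.10 in WT (edgeR adjusted p = 0.00341) and by 0.53 ± 0.10 in 5xFAD (0.000536). The median log2 difference of the 22 was -0.22 at 1 month, against -0.04 for all genes.

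Among the most abundant members, Ddx5-208, of an RNA helicase gene, took 51.1% to 60.3% of its gene. Kif21b-204, of a kinesin gene, took 66.2% to 84.6%, and its stop lies in an inserted exon of 180 nt. Aipl1-202, of a chaperone needed for the photoreceptor phosphodiesterase, took 38.7% to 44.6%. None of Ddx5-208, Kif21b-204 and Aipl1-202 was called for its level in any comparison.

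Of the other abundant members, Atp2a2-203 and Slc4a7-215 carried most counts of their gene. Lars2-209 and Ppia-201 did not do so in every group. In WT at 6 months, the coding transcript Lars2-201 held a mean of 54.8% of Lars2 and Ppia-202 54.9% of Ppia. Atp2a2-203, of the endoplasmic reticulum calcium pump gene, took 87.1% to 99.6% of Atp2a2. As given above, it rose at 1 month, as did the gene (0.71, adjusted p = 1.1e-05). Slc4a7-215, of a sodium bicarbonate cotransporter gene, took 95.4% (WT) and 86.4% (5xFAD) of Slc4a7 at 1 month, and 87.7% (WT) and 95.8% (5xFAD) at 6 months. The interaction of its share was 3.39 ± 0.53 in log2 odds against the rest of the gene (edgeR adjusted p = 0.0163). It did not pass without WT 6-month replicate 1 (0.0525) or 2 (0.0553). Lars2-209, of the mitochondrial leucyl-tRNA synthetase gene, had 22975 and 10235 counts in 5xFAD 6-month replicates 1 and 2 and 1547 in replicate 3. The first 2 are among the libraries richest in ribosomal RNA, and leaving this transcript out lowered the 6-month change of the summed share from 15.8% to 12.4%. Ppia-201 is uncertain, because Ppia has many near-identical processed copies in the genome among which reads can be split.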

How the data were processed

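Poly(A) RNA of whole retina was sequenced in 12 libraries. The authors deposited expected counts per transcript and per gene, which RSEM estimates by splitting reads among the transcripts they fit. The submitters' processing notes name the build GRCm38.p6, the trimmer Trim Galore (0.6.6), the aligner STAR (2.7.1a), the quantifier RSEM (1.3.3) and DESeq2 (1.32.0), and the role of each beyond the file type is not given in the sources used here. Library preparation did not keep strand, per the labels' protocols, so reads of overlapping antisense genes cannot be told apart.

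Transcript classes and exons came from GENCODE M21, to which 141469 of 142699 transcripts in the table matched. The members and gene lists were chosen with earlier results of these data known. Expected counts were rounded and tested with edgeR 4.0.16 (R 4.3.3) by the quasi-likelihood test, with TMM factors, its default filter on low counts and 1 mean per group over all 12 libraries (8 residual degrees of freedom). P-values were adjusted by Benjamini-Hochberg over all 45326 transcripts or 16233 genes tested, with a threshold of 0.05. CPM is the deposited count scaled to a common library total with TMM factors, except for App, which was scaled to the library total alone. Errors of log2 differences are the difference divided by the square root of F. The share of a gene's counts was tested over 34681 transcripts as the transcript against the rest of its gene in each library, where both had a mean of at least 10 counts. Log2 values of the share test are therefore log2 odds ratios. A fold against a group with 0 in every library is a lower bound, computed with 3 counts in each library. That bound and all precision statements cover counting error and the spread of 3 libraries only. Scripts were tested on simulated data.

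Named members are those with the largest differences among called members whose groups did not overlap (up to 8 in each direction and comparison), those with the smallest p-values for the share, the 10 most abundant, the neighbours of the count threshold and up to 4 of each gene list. A few members that meet this rule are not reported here. Alternatives were other size factors, DESeq2 1.42.0, another count filter, a replicate block, removal of a length and GC trend (spline with 4 degrees of freedom), limma 3.58.1 on logit shares, other member thresholds and leaving out libraries. Same-numbered libraries of different groups had correlations of -0.161 to 0.0889 between their deviations, so the numbers were not taken to pair samples. Figures were drawn with matplotlib 3.10.9.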

Additional observations from a re-analysis of the deposited data

Results flagged for a closer look

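The members below had a genotype difference that itself differed between 1 and 6 months (edgeR interaction test, Benjamini-Hochberg adjusted p under 0.05). The value in parentheses is the difference between 5xFAD and WT at 6 months minus that at 1 month, each on the scale of log2(mean CPM + 1), so a member at 0 in a group has a finite value. In descending order, the difference was more positive at 6 months for Ano2-202 (7.68), Slc6a8-202 (7.57), Ehmt1-206 (6.46), Dnm1-206 (5.66) and Lars2-209 (5.47). Next came Gm42715-202 (4.22), Heatr1-206 (4.07), Rpgrip1-214 (3.96), Trip12-209 (3.79), Mbd6-204 (3.78) and Mdh2-203 (3.61). The smallest positive values were those of Smarca2-215 (2.79), Pitpnm1-209 (2.15), Rpgrip1-217 (1.85), Gm48551-202 (1.43), Ppia-201 (1.33) and Gm20716-201 (0.68).

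It was more negative at 6 months for Pcnx-205 (-9.84), Atp2c1-218 (-9.65), Ndst3-205 (-8.89), Ppp1cb-203 (-8.63), Ppargc1a-201 (-7.62), Cnot1-216 (-6.44) and Nars-212 (-5.69). Smaller negative values were found for Tbc1d30-202 (-5.64), Slc37a3-206 (-5.33), Hnrnpk-203 (-4.68), Tnpo3-207 (-4.61), Ankrd33b-201 (-4.49), Peli2-205 (-4.46) and Iqsec3-202 (-3.16). The values nearest 0 on that side were those of Adgrb1-206 (-2.95), Oxsr1-202 (-2.48), Syt6-206 (-2.43), Hnrnpdl-205 (-1.77), Hnrnpu-206 (-1.34), Piga-205 (-0.84) and Atp2a2-203 (-0.83). Lars2-209 was highest in the libraries richest in ribosomal RNA, and Ppia-201 has near-identical copies in the genome, as described above. Ppargc1a-201, Dnm1-206, Ano2-202 and Hnrnpk-203 have neither a base nor a junction of their own.

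Some of these interaction calls did not pass when 1 library was left out (edgeR adjusted p). Hnrnpdl-205 (up to 0.133) and Piga-205 (up to 0.122) were lost without any 1 of the 12 libraries. Gm20716-201 (up to 0.138) was lost without any 1 except WT 1-month replicate 3, and Tnpo3-207 (up to 0.101) without any 1 except WT 1-month replicate 2. Lars2-209 was lost without any 1 except WT 1-month replicate 3, WT 6-month replicate 3 and 5xFAD 6-month replicate 3 (up to 0.102). Mbd6-204 was lost without WT 1-month replicate 1 or 2, 5xFAD 1-month replicate 1, any 1 of the WT 6-month libraries or 5xFAD 6-month replicate 1 (up to 0.0817). Slc6a8-202 was lost without WT 1-month replicate 2, any 1 of the 5xFAD 1-month libraries, WT 6-month replicate 2 or 3 or 5xFAD 6-month replicate 2 (up to 0.0707). Cnot1-216 was lost without replicate 3 of either genotype at 1 month, WT 6-month replicate 1 or 2 or 5xFAD 6-month replicate 1 (up to 0.0642). Oxsr1-202 was lost without WT 1-month replicate 2, 5xFAD 1-month replicate 1 or WT 6-month replicate 1 (up to 0.0542). Without WT 6-month replicate 2, Peli2-205 (0.0573) and Ppia-201 (0.0531) did not pass. Those of Ano2-202 and Hnrnpk-203 are given above, and the other members listed kept their calls without any 1 library. Atp2a2-203 went from -0.83 to 0.066 once the trend on length and GC was taken out (adjusted p = 0.875).

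The summed share of counts of all members stands here because every 5xFAD library lay below every WT library at 1 month and above at 6 months. The genotype difference changed by 0.864 percentage points between the ages, and no p-value is given for it, since the members were chosen with earlier results known.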

How the results depend on the processing

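Counts of members called are given in the order 1 month, 6 months, age in WT, age in 5xFAD, interaction and any difference among the 4 groups. For the level they were 37, 9, 14, 52, 108 and 39, and with DESeq2's Wald or likelihood-ratio test 296, 194, 213, 302, 436 and 286. Leaving out the 3 ribosomal RNA-rich libraries, 4 members were called at 6 months, 7 for age in 5xFAD, 49 for the interaction and 15 for any difference. Without 1 library the counts ran from 14 to 38, 1 to 22, 3 to 21, 17 to 53, 47 to 111 and 14 to 47. For the share they were 7, 3, 3, 10, 48 and 5, with a minimum of 50 counts 31, 7, 9, 30, 94 and 24, and with limma on logit shares 46, 26, 22, 55, 146 and 49. Without the ribosomal RNA-rich libraries 1, 6, 2, 21 and 0 were called in all but the 1-month comparison. Without 1 library the share counts ran from 1 to 10, 0 to 16, 0 to 4, 2 to 26, 9 to 58 and 0 to 15. DESeq2's size factors, a filter of 1 count, removal of the length and GC trend and a member threshold of 50 counts left each level count within 1.5 times. The interaction of Atp2a2-203 turned from -0.83 to 0.066 with the length and GC trend removed. The cause of these shifts was not tested. Calls over all transcripts were counted in the main fits only, so the alternative counts have no such share beside them.

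With the replicate number as a block, 16, 1, 2, 20, 57 and 9 members were called for the level and 0 in each comparison of the share. The labels do not state that the numbers pair samples, and the weak correlations given above cannot exclude it. The summed share of counts at 6 months was 10.6% higher in 5xFAD without the 10 most abundant members and 12.4% higher without Lars2, an alternative chosen after seeing the data, against 15.8%. Without 1 library its changes ran from -16.4% to -12.2% at 1 month, 14.7% to 17.99% at 6 months, -15.9% to -11.6% with age in WT and 15.3% to 18.7% with age in 5xFAD. With 3 libraries a group, low counts and reads split among isoforms limit what single members can show.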
